A study of Mus musculus with 24 samples.

Results

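The cyclins of the A, B, D and E families, the proteins that switch on the kinases driving cells through division, were followed across 24 testis arrays. Members were all probes annotated to Ccna1, Ccna2, Ccnb1, Ccnb2, Ccnb3, Ccnd1, Ccnd2, Ccnd3, Ccne1 or Ccne2. Of these 10 genes, 9 had a named probe and together they had 17 of the 45278 probes on the array. Ccnb1 is not analysed here because no probe carried its name. The filter on dim probes kept 12 of the 17 probes, which represent 7 genes, among 22639 probes tested in all.

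The study set testes without NSun2, which adds methyl groups to cytosine in RNA, against wild-type (WT) testes of the same age, 15 or 49 days. There were 6 arrays in each of the 4 groups, lettered A to F, and every sample was total RNA of whole testis from the F1 generation of CBA x C57BL/6J. Knock-out (KO) mice came from a pair of NSun2-/- lines, one made with the gene-trap embryonic stem cell line D014D11 and the other carrying the allele Nsun2tm1a(EUCOMM)Wtsi. The labels do not say which line an array came from, nor whether the arrays of a group came from different animals, so p-values measure the spread between these samples, which may be technical.

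A cyclin binds a cyclin-dependent kinase, gives it activity and part of its choice of targets, and is then destroyed so that the next step of the cycle can follow. D-type cyclins act with CDK4 and CDK6 early in the cycle, E-type cyclins act with CDK2 at the entry to DNA synthesis, and A- and B-type cyclins act during synthesis and at division. In the testis these steps are divided among cell types: spermatogonia and juvenile Sertoli cells divide by mitosis, spermatocytes go through meiosis, and spermatids no longer divide. Ccna1 and Ccnb3 are known as germ-line members of their families in the mouse.

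The arrays measure probe brightness, given here as log2 intensity after background correction and normalisation. A probe was called above background on an array when under 1% of the dim control rows were brighter, and 16267 to 19051 probes met that limit per array. The single Nsun2 probe fell by 1.48 at 15 days and by 1.15 at 49 days (limma adjusted p = 3.07e-04 and 5.42e-05), and it was therefore at least 1.16-fold and at least 1.18-fold lower in KO, where 0 of 6 arrays of each age were above background against 5 and 3 of 6 in WT. The sources used here do not place that probe relative to the inserted cassettes. KO replicate D of 49 days stood apart: the mean of its round spermatid marker genes stood at -4.47 from the WT mean on the log2 scale, and that of the other 5 KO arrays of that age between -2.81 and -0.44. At 15 days, WT replicate A and KO replicate B stood 0.78 and 1.57 above the WT mean on elongating spermatid markers, and the other 10 arrays lay between -0.44 and -0.07.

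The adult KO testis had less of the germ-line cyclin Ccna1 than the adult WT testis. It had more of the germ-line cyclin Ccnb3 and of the D-type cyclins Ccnd1 and Ccnd2. At 49 days Ccna1 fell by 1.84 on the log2 scale, or 3.59-fold, and Ccnd3 fell by 0.45. Ccnd2 rose by 1.79, or 3.47-fold, Ccnb3 by 1.35 and Ccnd1 by 1.25. Ccne1 (0.22) and Ccne2 (-0.52) did not pass the test. At 15 days Ccna1 was below background, and none of the other 6 genes passed, although their changes ran from -0.41 for Ccne1 to 0.68 for Ccne2.

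Read against all probes, the share of cyclin genes called in adults lay near the background. At 49 days 5 of 7 cyclin genes were called, 3 higher and 2 lower, where 69.3% of all tested probes were called, 41.8% higher and 27.5% lower. Cyclic loess normalisation left the 5 calls as they were and turned the balance over all probes to 27.4% higher and 39.5% lower. At 15 days 0 of the 6 genes above background were called, where 4.2% of all probes were, 1.09% higher and 3.11% lower (1.34% and 1.72% after scale normalisation). Before adjustment over all probes, limma's p at 15 days was under 0.05 for the main probes of Ccnd3 (0.0137) and Ccne1 (0.0386) and for the third probe of Ccnd2 (0.00998). A limma fit to the 12 arrays of 15 days alone called 17% of probes and again 0 of 6 genes by their main probe, with Ccnd3 at an adjusted p of 0.0503 and Ccne1 at 0.0505. That limma fit called the third Ccnd2 probe (0.56, adjusted p = 0.0490). The median change was 0.22 over the 7 genes at 49 days and 0.31 over the 6 at 15 days, beside 0.21 and 0.0095 over all probes.

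**Figure D1:**
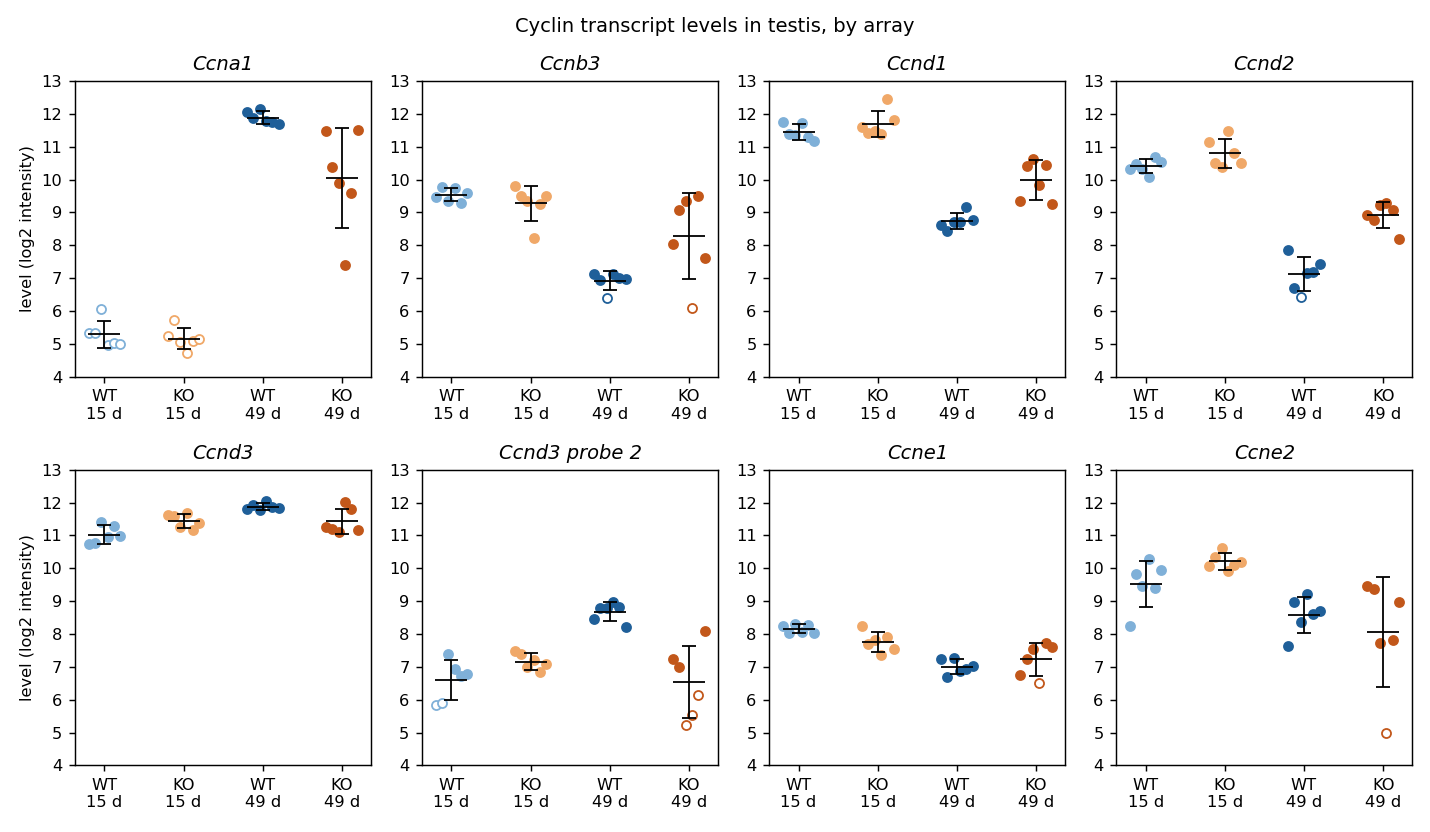
Log2 intensity of 7 cyclin genes, with a second probe for Ccnd3, on each of the 24 arrays (6 per group; filled points are above background, open points are not; bars give the mean and SD). Ccna1 lies between 11.70 and 12.16 on the WT arrays of 49 days and reaches down to 7.39 among the KO arrays, while Ccnd2 lies between 8.19 and 9.29 on the KO arrays of 49 days, above all WT arrays of that age.

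Ccna1 encodes the germ-line A-type cyclin, which mouse spermatocytes need to enter the first meiotic division. It was above background on 0 of 12 arrays at 15 days, where WT arrays ranged from 4.95 to 6.06 (median 5.18) and KO arrays from 4.72 to 5.73 (median 5.12). At 49 days it ranged from 11.70 to 12.16 on WT arrays (median 11.82) and from 7.39 to 11.50 on KO arrays (median 10.15). All 12 arrays of 49 days were above background, the groups did not overlap, and the KO arrays were spread far more widely than the WT arrays.

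The fall of Ccna1 in adult KO testes was 1.84 (SE 0.44, limma adjusted p = 7.88e-04), with group means of 11.89 ± 0.19 in WT and 10.04 ± 1.52 in KO (SD, n = 6). Within each of the 4 slides it was between -2.26 and -1.37, and without KO replicate D it was -1.31. The SE above shares 1 estimate of spread over all 4 groups. In the limma fit to the 12 arrays of 49 days alone the SE was 0.56 (adjusted p = 0.0129). From 15 to 49 days Ccna1 became at least 45.8-fold higher in WT and at least 12.7-fold higher in KO (limma adjusted p = 6.53e-12 and 3.61e-09). Its probe passed the filter only through its 49-day arrays, so the p-values of this age change are given as description. These folds are lower bounds, set against the dimmest level that counts as above background on each 15-day array. At 15 days both groups lay below background, so a KO effect there, and whether it differed from that at 49 days, could not be measured. The fitted difference of -1.72 (limma adjusted p = 0.0260) is set against values below background and is not counted here; it did not pass with the slide as a fixed block (-1.55, adjusted p = 0.0617) or without the 15-day arrays that stood apart (-1.62, adjusted p = 0.0556).

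The window around the Ccna1 start is shown because this gene had the largest age change of the family. It covers 250 bases before to 50 after the gene start in RefSeq (GRCm38.p6, chr3:55055006-55055305, minus strand), printed 5′ to 3′ along the gene, with motif matches in capitals.

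Ccna1: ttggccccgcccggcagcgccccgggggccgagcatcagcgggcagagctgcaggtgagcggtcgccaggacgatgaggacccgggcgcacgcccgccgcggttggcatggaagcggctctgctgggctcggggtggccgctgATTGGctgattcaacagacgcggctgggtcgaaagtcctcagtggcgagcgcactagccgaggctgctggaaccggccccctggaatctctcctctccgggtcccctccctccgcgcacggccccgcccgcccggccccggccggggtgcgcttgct

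Motifs searched on both strands were the CCAAT box (CCAAT, bound by NF-Y), the CHR element (TTTGAA) and MYB core (AACGG) known from cell cycle promoters, the CRE (TGACGTCA, bound by CREM and its relatives) and the TATA box (TATAAA). They occur in 37.4%, 17.9%, 17.4%, 1.79% and 13.6% of all 32851 windows of that length. The Ccna1 window held 1 match, a CCAAT box on the opposite strand (capitals ATTGG) beginning at position -107, counted so that the first base of the gene is 1. A match describes letters and does not show that a factor binds there.

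Ccna2, the A-type cyclin of dividing somatic and germ cells, and Ccnb2, a B-type partner of CDK1, each had 1 probe, and neither probe was above background on any of the 24 arrays. Ccna2 ranged from 4.67 to 5.28 and Ccnb2 from 4.69 to 5.30 over all arrays, and the groups overlapped for both. Neither probe passed the filter, so they were not tested and their levels say nothing on whether the genes changed. The planned contrast of Ccna1 with Ccna2 therefore reads Ccna1: the difference between the probes was 1.78 lower in KO at 49 days (exact two-sided permutation test over 12 arrays, p = 0.00649, adjusted over both ages 0.0130; the smallest possible p is 0.00216) and 0.16 lower at 15 days (exact permutation p = 0.511). Permuting within slides gave -1.73 at 49 days with an exact p of 0.0741. At 15 days neither probe was above background, so the permutation test of that age could not measure a KO effect.

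Ccnb3, an unusual B-type cyclin, is known in the mouse testis from the early stages of meiotic prophase. Its main probe stood at 9.30 to 9.77 on WT arrays of 15 days (median 9.53) and at 8.23 to 9.80 on KO arrays (median 9.43). The groups overlapped, and KO replicate D was the low array. In adult WT testes it was between 6.38 and 7.14 (median 6.98, above background on 5 of 6 arrays), and in adult KO testes between 6.11 and 9.51 (median 8.55, above background on 5 of 6). In adults 5 of the 6 KO arrays lay above every WT array, and KO replicate D was not above background, like WT replicate C.

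Ccnb3 rose by 1.35 in adult KO testes (SE 0.39, limma adjusted p = 0.00425) and by 1.79 without replicate D. It rose by 0.79 with no background correction and by 2.46 with array weights. In the limma fit to the 12 arrays of 49 days alone Ccnb3 had an SE of 0.49 (adjusted p = 0.0291). Its KO minus WT value was above 0 on 4 of 4 slides, from 0.11 to 2.31. At 15 days the change was -0.26 (95% confidence interval -1.08 to 0.55, limma adjusted p = 0.824), and the effects at the 2 ages differed by 1.62 (limma adjusted p = 0.0206; after cyclic loess normalisation 1.22, adjusted p = 0.0685). With age Ccnb3 fell by 2.61 in WT (limma adjusted p = 1.97e-06) and by 0.99 in KO (limma adjusted p = 0.0341). The KO call was lost in 12 of 38 alternatives, among them the fit without KO replicate D of 49 days (-0.56, adjusted p = 0.0906), and the sign turned with array weights. A second Ccnb3 probe was above background on 0 of 24 arrays and was not tested.

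The start window of Ccnb3 (RefSeq GRCm38.p6, chrX:7041570-7041869, minus strand) is printed beside that of Ccna1 because the 2 germ-line cyclins went opposite ways with age and in adult KO testes.

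Ccnb3: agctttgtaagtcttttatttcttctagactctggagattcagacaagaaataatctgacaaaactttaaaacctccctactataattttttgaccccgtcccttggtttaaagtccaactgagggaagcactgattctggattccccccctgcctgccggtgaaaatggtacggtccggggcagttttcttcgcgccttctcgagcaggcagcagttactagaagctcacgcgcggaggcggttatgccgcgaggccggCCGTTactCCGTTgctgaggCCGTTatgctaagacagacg

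The window held 3 matches of the MYB core on the opposite strand (capitals CCGTT), beginning at positions 11, 19 and 31, and none of the other 4 motifs.

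Ccnd1, a D-type cyclin that couples growth signals to the cycle, had 3 tested probes. Its main probe ranged from 11.17 to 11.76 on WT arrays of 15 days (median 11.38), from 11.40 to 12.44 on KO arrays of 15 days (median 11.53), from 8.45 to 9.16 on WT arrays of 49 days (median 8.71) and from 9.25 to 10.62 on KO arrays of 49 days (median 10.12). The juvenile groups overlapped and the adult groups did not, with every KO array above every WT array. The rise at 49 days was 1.25 (SE 0.22, limma adjusted p = 4.82e-05), or 2.37-fold, and lay between 0.81 and 2.09 within the slides; after cyclic loess it was 0.83. The second probe gave 1.31 and the third 1.01 (limma adjusted p = 4.03e-05 and 1.70e-04), the third being above background on 0 of 6 WT and 3 of 6 KO arrays.

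At 15 days the Ccnd1 change was 0.23 (95% confidence interval -0.23 to 0.69, limma adjusted p = 0.674). KO replicate E held the highest value, 12.44, and the same array had the highest epididymis marker level of its group, 2.54 above the WT mean over 3 genes; the part of that tissue in the value was not tested. The effects at both ages differed by 1.02 for the main probe, 1.03 for the second and 0.63 for the third (limma adjusted p = 0.0117, 0.0131 and 0.0749), so the third probe did not pass. After cyclic loess normalisation the main probe did not pass either (0.63, adjusted p = 0.0570). With age Ccnd1 fell by 2.72 in WT and by 1.70 in KO (limma adjusted p = 1.69e-10 and 9.17e-07).

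Ccnd2 encodes the D-type cyclin known in mice for the division of ovarian granulosa cells and for spermatogonia that begin to differentiate. The main probe ranged from 10.09 to 10.70 in WT (median 10.40) and from 10.37 to 11.49 in KO (median 10.65) at 15 days, and these groups overlapped. At 49 days WT arrays ranged from 6.42 to 7.86 (median 7.17, above background on 5 of 6) and KO arrays from 8.19 to 9.29 (median 9.01). The adult groups were fully apart. Ccnd2 had the largest adult rise of the family, 1.79 (SE 0.23, limma adjusted p = 1.45e-06), with 1.61 to 2.22 within the slides. With no background correction, as in the authors' own normalised values, it was 1.02.

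Other Ccnd2 probes gave smaller values. The second probe rose by 1.55 (limma adjusted p = 4.54e-06) and the third, above background on 0 of 6 WT and 1 of 6 KO arrays of 49 days, by 0.50 (limma adjusted p = 0.0295). In the limma fit to the 12 arrays of 49 days alone the third probe did not pass (adjusted p = 0.0509). The remaining Ccnd2 probe was above background on no array and was not tested. At 15 days Ccnd2 stood at 0.39 (95% confidence interval -0.08 to 0.86, limma adjusted p = 0.393) and the third probe of the gene at 0.56 (0.15 to 0.97, limma adjusted p = 0.116), and the effects differed between ages by 1.40 (limma adjusted p = 0.00171), by 1.15 for the second probe and by -0.06 for the third (adjusted p = 0.00497 and 0.879). With age the gene fell by 3.28 in WT and 1.88 in KO (limma adjusted p = 1.24e-11 and 2.87e-07). The dimmest tested probes of Ccnd1 and Ccnd2 were not above background in adult WT testes, so their fitted changes there depend on the offset.

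Ccnd3, the third D-type cyclin, is known also from cells that have left the cycle, and here its probes gave unequal answers. The main probe ranged from 10.75 to 11.42 in WT (median 10.97) and from 11.17 to 11.69 in KO (median 11.47) at 15 days. In adults it ranged from 11.78 to 12.04 in WT (median 11.85) and from 11.12 to 12.03 in KO (median 11.23). The groups overlapped at both ages: in adults KO replicates D and E lay within the WT range and the other 4 KO arrays below it. The adult fall was 0.45 (SE 0.16, limma adjusted p = 0.0159), between -0.75 and -0.20 within slides, and it did not pass with array weights (-0.20, adjusted p = 0.125). After cyclic loess normalisation the main probe stood at -1.09 (adjusted p = 3.72e-06).

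A second Ccnd3 probe is annotated to a different RefSeq transcript of the gene. It ranged from 5.82 to 7.40 in WT (median 6.75, above background on 4 of 6 arrays) and from 6.83 to 7.50 in KO (median 7.14) at 15 days. At 49 days it ranged from 8.20 to 8.97 in WT (median 8.80) and from 5.22 to 8.08 in KO (median 6.57, above background on 3 of 6). Adult groups did not overlap, and the probe fell by 2.14 (SE 0.36, limma adjusted p = 2.23e-05), with -3.40 to -1.67 within slides. The other probe to the same transcript was above background on no array and was not tested.

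The difference between both Ccnd3 probes, a contrast chosen after the values were seen, was 1.69 lower in adult KO than in adult WT testes (exact two-sided permutation test over 12 arrays, p = 0.00866, adjusted over both ages 0.0173). Permuted within slides it was -1.70 with an exact p of 0.0617. At 15 days it was 0.15 (exact permutation p = 0.413). The probes parted most on KO replicate D, where the main probe had its highest KO value, 12.03, and the second probe stood at 5.53 and was not above background. With age the main probe rose by 0.85 in WT (limma adjusted p = 3.24e-05) and stood at -0.02 in KO (95% confidence interval -0.34 to 0.31), and the second probe rose by 2.07 in WT and stood at -0.63 in KO (limma adjusted p = 1.13e-05 and 0.135). KO effects differed between ages by -0.87 for the main and -2.70 for the second probe (limma adjusted p = 0.00370 and 3.57e-04).

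RefSeq lists a pair of start windows for Ccnd3, both on the plus strand of GRCm38.p6, at chr17:47504801-47505100 and chr17:47593217-47593516. They are printed because the probes of its transcripts behaved unequally; which probe's transcript begins at which start was not determined here.

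Ccnd3 upstream start: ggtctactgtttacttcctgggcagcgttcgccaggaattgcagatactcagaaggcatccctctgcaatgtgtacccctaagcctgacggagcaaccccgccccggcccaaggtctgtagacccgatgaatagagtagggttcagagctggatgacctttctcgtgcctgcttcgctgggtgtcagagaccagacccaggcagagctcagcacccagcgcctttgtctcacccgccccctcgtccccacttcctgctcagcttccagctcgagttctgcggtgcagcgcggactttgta

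Ccnd3 downstream start: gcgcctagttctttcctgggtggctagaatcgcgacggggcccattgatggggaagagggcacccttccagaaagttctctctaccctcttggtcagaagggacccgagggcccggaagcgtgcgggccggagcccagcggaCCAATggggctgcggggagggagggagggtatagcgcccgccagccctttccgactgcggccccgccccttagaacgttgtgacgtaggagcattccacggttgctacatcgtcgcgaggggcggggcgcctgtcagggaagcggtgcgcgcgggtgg

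The downstream window held 1 CCAAT box (capitals), beginning at position -108, and no other match, and the upstream window held none of the 5 motifs. Windows of Ccnb1, Ccnb2 and Ccne1 were searched too: Ccnb2 held 3 CCAAT boxes and 2 CHR elements, Ccnb1 held 2 CCAAT boxes and 1 MYB core, and Ccne1 held none.

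Ccne1 and Ccne2 encode the E-type cyclins that open DNA synthesis with CDK2, and both have roles in male meiosis in the mouse. Ccne1 ranged from 8.02 to 8.31 in WT (median 8.16) and from 7.35 to 8.23 in KO (median 7.75) at 15 days, and from 6.70 to 7.28 in WT (median 6.98) and 6.50 to 7.73 in KO (median 7.39) at 49 days. Its groups overlapped at both ages. The KO change was -0.41 at 15 days (95% confidence interval -0.79 to -0.02, limma adjusted p = 0.240) and 0.22 at 49 days (-0.16 to 0.61, limma adjusted p = 0.284). These effects differed by 0.63 at the edge of the threshold (limma adjusted p = 0.04997), and the call was lost in 24 of 37 alternatives.

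Ccne2 ranged from 8.25 to 10.29 in WT (median 9.64) and from 9.91 to 10.62 in KO (median 10.15) at 15 days, with WT replicate A the low array. At 49 days it ranged from 7.62 to 9.21 in WT (median 8.66) and from 5.001 to 9.48 in KO (median 8.40). KO replicate D, at 5.001, was not above background, and the other KO arrays lay from 7.74 upwards, among the WT arrays or just over them. Neither age passed: the KO change was 0.68 at 15 days (95% confidence interval -0.39 to 1.74, limma adjusted p = 0.552) and -0.52 at 49 days (-1.58 to 0.55, limma adjusted p = 0.375), and without replicate D the latter was 0.093.

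**Figure D2:**
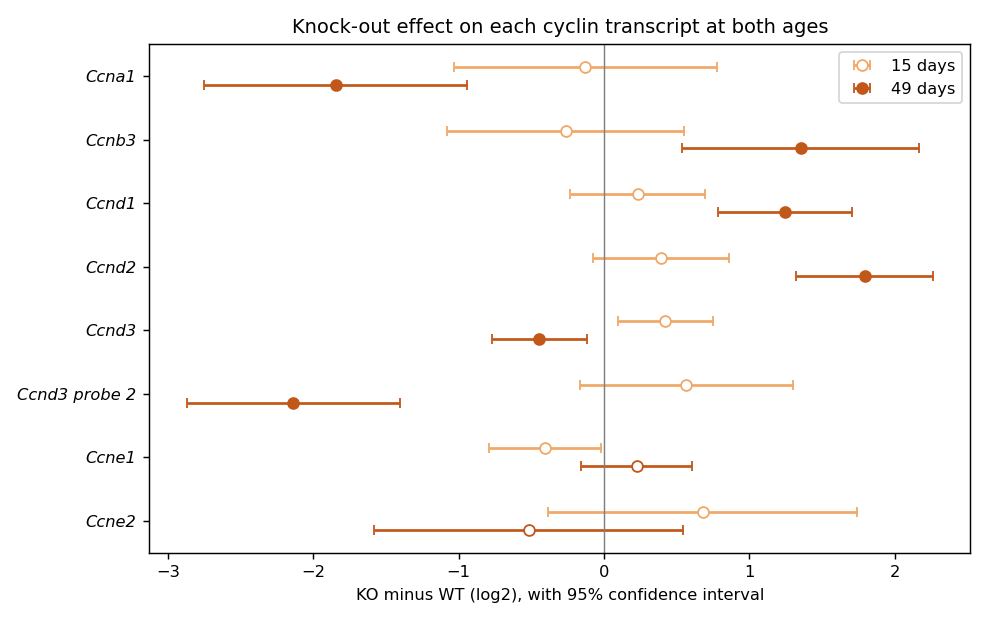
KO minus WT for 7 cyclin genes and the second Ccnd3 probe, in log2 units with 95% confidence intervals, at 15 days (light) and 49 days (dark); filled points passed the test at an adjusted p under 0.05. Points of 15 days lie between -0.41 and 0.68 and none is filled, that of Ccna1 being set between values below background; at 49 days Ccnb3, Ccnd1 and Ccnd2 lie to the right of 0, and Ccna1 and both Ccnd3 probes to the left.

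Ccna1 passed the filter only through its 49-day levels and is counted here. Across the change from 15 to 49 days, Ccna1 and Ccnd3 rose in WT testes and Ccnb3, Ccnd1, Ccnd2 and Ccne1 fell. That makes 6 of 7 called, 2 higher and 4 lower, where 81.3% of all probes were called, 27.5% higher and 53.8% lower. In KO testes Ccna1 rose and Ccnb3, Ccnd1, Ccnd2, Ccne1 and Ccne2 fell: 6 of 7 called, 1 higher and 5 lower, where 57.8% of probes were called, 21.6% higher and 36.2% lower. Ccne1 fell by 1.15 in WT and by 0.52 in KO (limma adjusted p = 4.65e-06 and 0.0186), and Ccne2 by 2.14 in KO (limma adjusted p = 0.00108) beside a value of -0.95 in WT that did not pass (95% confidence interval -2.01 to 0.12). After cyclic loess the balance over all probes turned to 41.8% higher and 33.5% lower in WT and to 32.3% and 21.6% in KO, with 2 cyclin genes higher and 4 lower in WT and 1 higher and 3 lower in KO. The median change of the 7 genes was -1.15 in WT and -0.99 in KO, beside -0.54 and -0.21 over all probes.

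The test of the difference between the KO effects at both ages called 5 of the 6 genes that were above background at both, where 48.8% of all probes were called, 30.6% higher and 18.2% lower. After cyclic loess, which called 15.2% of probes higher and 26.8% lower, Ccnd2 and Ccnd3 were still called. Ccnb3, Ccnd1, Ccnd2 and Ccne1 had a higher value at 49 than at 15 days, Ccnd3 a lower one, and Ccne2 stood at -1.20 (95% confidence interval -2.70 to 0.31, limma adjusted p = 0.175). This contrast is made of the same arrays as the comparisons within each age and is no separate evidence of their direction.

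The 4 groups were ordered by level. For Ccnd1 and Ccnd2 the order from high to low was KO at 15 days, WT at 15 days, KO at 49 days and WT at 49 days, where only the 15-day neighbours did not differ by the test. For Ccnb3 both 15-day groups, which did not differ, stood above adult KO and that above adult WT, and for Ccna1 the order of ages was turned, with adult WT above adult KO and both above the 15-day groups. In Ccnd3 adult WT was highest and WT at 15 days lowest, with both KO groups between them and not told apart (difference 0.02, limma adjusted p = 0.938). For Ccne1 the only neighbours that differed were KO at 15 and KO at 49 days, and for Ccne2 none did.

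**Figure D3:**
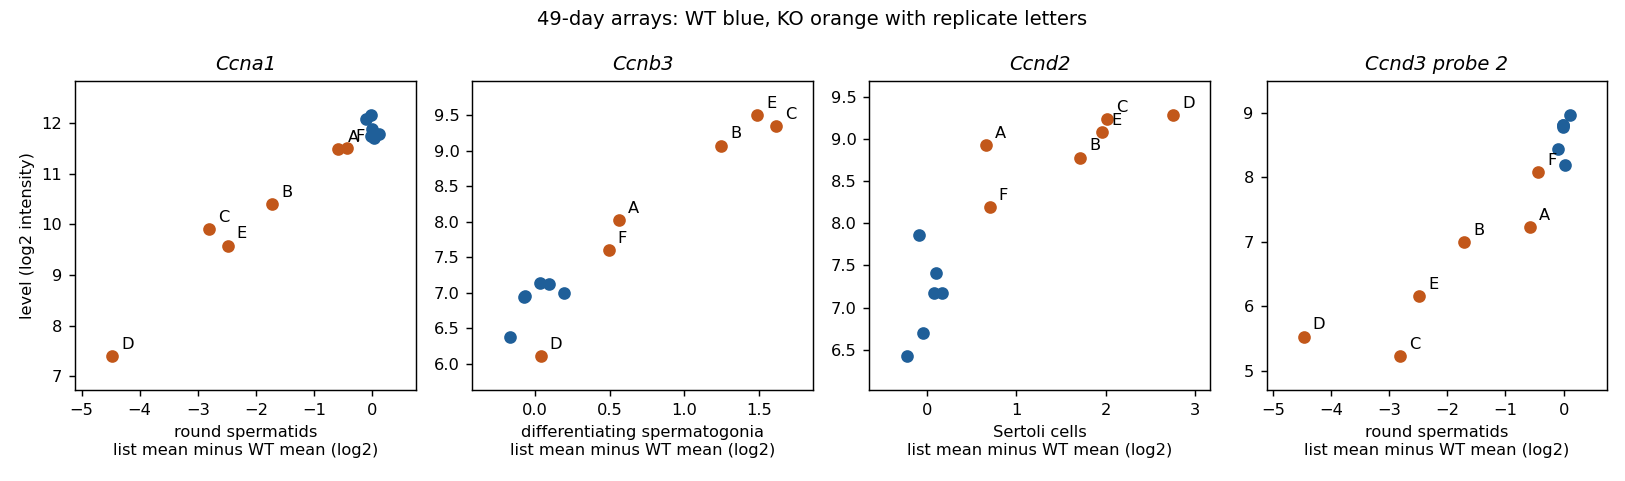
Log2 intensity of 4 cyclin probes (vertical axes) on the 12 arrays of 49 days, against the mean log2 level of a cell-type marker list on the same array, as the difference from the WT mean (horizontal axes); KO arrays carry their replicate letter. Ccna1 and Ccnd3 probe 2 are set against the round spermatid list, Ccnb3 against the differentiating spermatogonia list and Ccnd2 against the Sertoli list. KO replicate D, at -4.47 on the round spermatid list, has the lowest Ccna1 level (7.39). In the panels of that list KO replicates A and F lie nearest to the WT arrays. In the Ccnb3 panel replicate D does (list 0.04, level 6.11).

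The adult KO arrays differed from one another both in cyclin levels and in cell-type markers. Round spermatid markers fell in 16 of 16 tested genes at 49 days and Sertoli markers rose in 12 of 12. Over all probes 27.5% were lower and 41.8% higher. The list mean of round spermatid markers ran from 8.22 to 12.25 on KO arrays and from 12.59 to 12.80 on WT arrays, and that of Sertoli markers from 10.07 to 12.16 and from 9.19 to 9.58. Of 13 tested pachytene markers 7 fell and 1 rose (11 and 0 after cyclic loess or scale normalisation). Of 8 differentiating spermatogonia markers 6 rose and 0 fell (4 and 0 after cyclic loess). Of 11 undifferentiated spermatogonia markers 6 rose and 1 fell (1 and 2 after cyclic loess). Of 11 early meiotic markers 0 rose and 2 fell (0 and 5 after cyclic loess). Over all probes 27.4% were higher and 39.5% lower after cyclic loess. Other somatic lists rose as well: 6 of 7 Leydig, 7 of 10 macrophage and leukocyte, 5 of 7 endothelial and 4 of 6 peritubular myoid markers rose, with 1 myoid marker lower, where 41.8% of all probes were higher (4, 5, 3 and 4 rose after cyclic loess). Since the RNA was from whole testis, fewer cells of a type and less RNA per cell cannot be told apart, and the part of these markers in the cyclin results was not tested.

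By array, Ccna1 stood at 11.49, 10.40, 9.90, 7.39, 9.58 and 11.50 on KO replicates A to F. The pachytene list on the same arrays stood -0.19, -1.03, -1.50, -3.47, -1.38 and -0.15 from the WT mean, and the round spermatid list -0.58, -1.72, -2.81, -4.47, -2.49 and -0.44. Replicate D was lowest and replicates A and F were highest in all 3. Ccnd3 probe 2 stood at 7.23, 6.99, 5.22, 5.53, 6.16 and 8.08, again highest on F and A, and C, D and E were not above background.

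Ccnb3 stood at 8.03, 9.07, 9.35, 6.11, 9.51 and 7.61 on KO replicates A to F, and the differentiating spermatogonia list at 0.56, 1.25, 1.61, 0.04, 1.49 and 0.49 from the WT mean. Both were highest on C and E and lowest on D. The early meiotic list stood at -0.32, -0.08, 0.32, -2.70, -0.58 and 0.20, so D was the low array there as well. Beyond D the orders differed. Ccnb3 was highest on E, where that list stood at -0.58, and low on F (7.61), where it stood at 0.20.

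Ccnd2 stood at 8.93, 8.78, 9.24, 9.29, 9.08 and 8.19 and Ccnd1 at 9.34, 10.42, 10.62, 9.83, 10.45 and 9.25, while the Sertoli list stood 0.66, 1.71, 2.01, 2.75, 1.96 and 0.70 above the WT mean. Replicate D had the highest Sertoli value and, on the main probe, the highest Ccnd2 value, but a middling Ccnd1 value. On the second Ccnd2 probe C was highest (8.89) and D stood at 8.86. F had the lowest value of both cyclins. D was also the highest KO array on the Leydig (2.37 above the WT mean), macrophage and leukocyte (2.69), endothelial (1.89) and peritubular myoid (1.20) lists. At 15 days Ccnb3 was lowest on KO replicate D (8.23), where the early meiotic list was lowest too (-1.53 from the WT mean). That list was low on every KO array of 15 days, with means of 9.12 to 10.15 beside 10.56 to 10.83 in WT. Ccnb3 did not follow it on the other arrays: KO replicate A had the highest Ccnb3 value of that age (9.80), with the list at -0.92. Of 13 pachytene markers 8 fell at that age and 0 rose, where 3.11% of all probes were lower and 1.09% higher. The pachytene list means were 6.75 to 8.38 on KO and 8.55 to 10.48 on WT arrays, while Ccna1 was below background in both groups. Sertoli markers had 0 of 12 called at 15 days, near the background share of 4.2% of all probes.

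Partners and controls of the cyclins in 6 lists had 5 of 60 tested genes called at 15 days, or 8.33% beside 4.2% of all probes, and all 5 were lower. At 49 days 41 of 60 were called, or 68.3% beside 69.3% of all probes, with 43.3% higher and 25% lower beside 41.8% and 27.5%. After cyclic loess it was 23.3% higher and 48.3% lower, beside 27.4% and 39.5%, so the share of list genes called in adults lay near the background. Of the core kinases and their activators 0 rose and 1 of 10 fell at 15 days: Hspa2, the germ-cell chaperone of CDK1 in mouse spermatocytes (-1.51, limma adjusted p = 0.00613). At 49 days 5 rose and 2 fell, with a list median of 0.28 beside 0.21 over all probes. After cyclic loess normalisation, which lowered adult KO values across the array, 2 rose and 4 fell. Cdk7, of the CDK-activating kinase, rose by 1.22 and Cdk4, the partner of D-type cyclins, by 0.87 (0.43 after cyclic loess), while the activating phosphatases Cdc25c and Cdc25a fell by 1.33 and 0.64 (Cdc25a stood at -1.16 after cyclic loess).

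Inhibitors of the kinases had 0 of 9 called at 15 days and 2 higher and 4 lower at 49 days (list median -0.26), or 0 and 5 after cyclic loess. Over all probes 4.2% were called at 15 days, and at 49 days 41.8% were higher and 27.5% lower (27.4% and 39.5% after cyclic loess). Cdkn1a rose by 0.59 and Cdkn1c by 0.56 (0.17 and 0.12 after cyclic loess, where neither passed), Cdkn2c, an inhibitor of CDK4 and CDK6, fell by 1.12, and the phosphatase gene Cdkn3 fell by 1.27 (-1.71 and -2.09 after cyclic loess). In the list of cyclin destruction 1 of 8 fell at 15 days, Fbxw7, which marks E-type cyclins for destruction (-0.53, limma adjusted p = 0.0321). At 49 days 2 rose and 3 fell (median -0.32), or 1 and 7 after cyclic loess: Fbxo31, which targets cyclin D1, rose by 1.51 and Fzr1, an activator of the anaphase-promoting complex, by 0.26 (-0.35 after cyclic loess, with its sign turned), and that complex's subunit gene Cdc27 fell by 1.46 and its partner gene Ube2s by 0.90.

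The RB and E2F list, through which D- and E-type cyclins act, had 0 of 11 called at 15 days and 7 higher and 1 lower at 49 days (median 0.61), or 4 and 2 after cyclic loess. The shares over all probes were 4.2% called at 15 days, and 41.8% higher and 27.5% lower at 49 days (27.4% and 39.5% after cyclic loess). Tfdp2, a partner of E2F factors, rose by 1.36, the retinoblastoma gene Rb1 by 1.31 (0.86 after cyclic loess), and its relative Rbl2 fell by 2.61 (above background on 13 of 24 arrays). Of 8 regulators of cyclin genes, Crem fell at both ages, by 1.67 and 1.89 (limma adjusted p = 0.0359 and 8.57e-04); it is a transcription factor that mouse spermatids need, and it is also in the round spermatid list. The CCAAT-binding subunit genes Nfyc and Nfyb rose by 0.98 and 0.89 at 49 days (0.41 and 0.44 after cyclic loess), and Foxm1, a regulator of division genes, fell by 1.55, among 5 that rose and 2 that fell (median 0.54), or 3 and 3 after cyclic loess. At 15 days the Crem call was lost after cyclic loess (-1.63, adjusted p = 0.0722) and the Fbxw7 call after scale normalisation (-0.49, adjusted p = 0.132).

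Other cyclins numbered 14 tested genes. Beside them, 3.11% of all probes were lower at 15 days, and 41.8% were higher and 27.5% lower at 49 days (27.4% and 39.5% after cyclic loess). At 15 days 2 fell: Cntd1, needed for crossovers in mouse meiosis (-2.47, limma adjusted p = 0.00547), and Ccnyl1, which acts with CDK16 in mouse sperm formation (-0.83, adjusted p = 0.0137). At 49 days 5 rose and 3 fell (median -0.10), or 4 and 8 after cyclic loess. The transcription cyclins Ccnt2 and Ccnt1, partners of CDK9, rose by 1.496 and 1.10 (0.62 for Ccnt1 after cyclic loess), and Ccnk, a partner of CDK12 in transcription, and Ccni fell by 2.60 and 1.34, both above background on 18 of 24 arrays.

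The genes most like each cyclin were found by the root mean square difference of centred log2 levels over 24 arrays among 11633 genes. Ccna1 was closest to Ccdc178 (0.299) and Tmem89 (0.305), and Ccnb3 to Taf7l (0.265) and Tex16 (0.303). Ccnd1 was closest to Csnk1e (0.253) and Bahcc1 (0.258), Ccnd2 to S100a10 (0.314) and Fam102b (0.372), Ccne1 to Hira (0.216) and Rae1 (0.217), and Ccne2 to Smarca5-ps (0.374) and Ckap2 (0.412). Adult KO changes of the nearest genes, given as description, were -1.72 for Ccdc178, 1.29 for Taf7l, 1.19 for Csnk1e and 1.74 for S100a10. Ccnd3 was left out of this search because its group means spanned under 1 on the log2 scale.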

How the data were processed

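Total RNA of 24 testis samples was measured on Illumina beadchips, 6 arrays for each of WT and KO at 15 and 49 days, on 4 slides that each held all 4 groups. The authors deposited bead summary intensities for 45278 probes and 956 control rows per array, not normalised, with empty detection p columns. A second deposited table holds the authors' log2 values, which quantile normalisation of the log2 intensities gave back to within 3.62e-05. No scanner software was named, and the array's genome build was not given in the sources used here.

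Intensities were background-corrected (normexp, offset 16, from 946 dim control rows with a median under 400) and quantile normalised on the log2 scale with limma 3.58.1 in R 4.3.3, which understates the change of dim probes. Probes were ranked by mean level and the brighter share of 0.5 was tested. One limma model (lmFit, eBayes) with a mean per group was fitted to all 24 arrays with 20 residual degrees of freedom. P-values were two-sided and adjusted by Benjamini-Hochberg over 22639 probes, with a threshold of 0.05. The number of arrays limits the precision. The procedure was tested on simulated data. Replicate arrays of a group correlated between 0.844 and 0.993, and none were identical.

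Symbols came from a platform annotation (34885 probes with 1 symbol, 18 with several, 10375 unnamed), updated through gene identifiers. A gene's main probe was its brightest tested one. Named were all cyclin genes, Nsun2, up to 2 called genes per direction from each of 6 pathway lists and each KO comparison, and the 2 most similar genes per cyclin. Promoter windows came from RefSeq (GRCm38.p6), which held 7 windows for 6 of the 10 genes. The members, the pathway lists and the marker lists were chosen with earlier results of these data known, and p-values are not adjusted over them alone except where stated. Same-lettered arrays of different groups did not as a rule deviate together, with correlations from -0.21 to 0.39, so letters were not used as pairs. At most 3 of 6 arrays matched their own letter best, between WT of 49 and WT of 15 days. Other backgrounds, offsets, normalisations, filters, slide and letter blocks, array weights and left-out arrays were tried.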

Additional observations from a re-analysis of the deposited data

Results flagged for a closer look

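In 4 of 48 sets of 6 arrays, 1 array lay far from the others, where chance gives about 1 in 20. WT replicate C of 15 days read 6.06 for Ccna1, below background like the rest of its group. KO replicate D of 15 days read 8.23 for Ccnb3, where the next KO array read 9.24. Early meiotic markers were lowest on replicate D as well, but they were lower on every KO array than on every WT array of 15 days. WT replicate C of 49 days read 6.38 for Ccnb3 and was not above background. KO replicate E of 15 days read 11.88 on the second Ccnd1 probe, and its epididymis markers were the highest of the group. The part of these markers was not tested.

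The KO effect differed between 49 and 15 days for 8 of 11 cyclin probes (limma adjusted p under 0.05). Of all tested probes 48.8% were called. The 11 cyclin probes represent 6 genes and were above background on some arrays of each age. The third probes of Ccnd1 and Ccnd2, not among the 8, were above background on 0 of 6 WT arrays of 49 days. The difference was 1.62 for Ccnb3, 1.02 and 1.03 for the first and second probe of Ccnd1, 1.40 and 1.15 for those of Ccnd2, -0.87 and -2.70 for those of Ccnd3, and 0.63 for Ccne1. The latter is the smallest and the nearest to the threshold. At 15 days none of these probes passed the test by itself. The fitted value for Ccna1, -1.72, passed too, but its 15-day levels were below background on 12 of 12 arrays, so a difference between ages was not measured; it did not pass with the slide as a fixed block (adjusted p = 0.0617) or without the 15-day arrays that stood apart (0.0556).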

How the results depend on the processing

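Across the alternatives run, the 5 calls at 49 days remained for Ccna1, Ccnb3, Ccnd1 and Ccnd2 in 39 of 39, and for Ccnd3 in 38 of 39, the exception being array weights (-0.20, adjusted p = 0.125). Sizes moved more than calls: of 23 called cyclin changes in 5 comparisons, 17 moved by over 1.5 times in at least 1 setting. At 49 days these were Ccnd2 (1.79 to 1.02) and Ccnb3 (1.35 to 0.79) with no background correction and in the authors' deposited values, Ccnb3 with array weights (2.46), Ccnd1 after cyclic loess (1.25 to 0.83), and Ccnd3 (-0.45) after cyclic loess (-1.09), scale normalisation (-0.69), array weights and on its second probe (-2.14). With age in WT, Ccna1 stood at 4.20 instead of 6.60 and Ccnb3 at -1.57 instead of -2.61 with no background correction, and Ccnd3 at 1.74 and Ccne1 at -0.44 after cyclic loess instead of 0.85 and -1.15; in KO, Ccne1 stood at -0.098 after cyclic loess and was no longer called. With array weights Ccne1 (0.72) and Ccne2 (-0.82) passed at 49 days. The count at 15 days was 0, and 1 with array weights; leaving out 1 array gave 0 to 1, the 1 being Ccnd3 without KO replicate D of 49 days (0.42, adjusted p = 0.0496). Over all probes, the 15-day count of 950 became 3848 in the fit to 12 arrays, 4303 with array weights, 398 without the 2 arrays that stood apart (a setting chosen after seeing the data), and 463 to 2387 leaving out 1 array; the count for the difference of 11048 became 16847 with array weights. The count of cyclin genes for the difference, here with Ccna1 included, was 3 after cyclic loess instead of 6, and 5 to 6 leaving out 1 array. Cyclic loess moved the median change of all probes at 49 days from 0.21 to -0.11 and with age in WT from -0.54 to 0.10, and turned Ccne1 at 49 days to -0.10. Some other values changed sign, and not all of them were near 0. Ccnd3 with age in KO (-0.02) was 0.27 after cyclic loess, 0.26 with array weights and 0.011 without the arrays that stood apart. Leaving out 1 array, it was -0.14 to 0.047. Ccna1 at 15 days (-0.13) was 0.0053 with array weights and -0.24 to 0.027 leaving out 1. Ccnb3 with age in KO, a called fall of 0.99, was 0.0090 with array weights (limma adjusted p = 0.970). Ccne2 at 49 days (-0.52, not called) was 0.094 in the 11 adult arrays without KO replicate D, a setting chosen after seeing the data. Leaving out 1 array, it was -0.80 to 0.093. Beyond the arrays left out and the scaling, the cause was not tested. The Ccna1 minus Ccna2 contrast at 49 days was -1.78 with the replicate block (permuted within letters, exact, adjusted p = 0.125) and -1.73 within slides (exact permutation, adjusted p = 0.148). The letters could not be shown to pair arrays, and the letter block changed no count of cyclin genes. Neither Ccna1 nor Ccna2 has another probe, so that alternative was not run. Probes below background limit Ccna2, Ccnb2 and, at 15 days, Ccna1.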
